A study of Mus musculus with 10 samples.

Results

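The BCL2 family decides whether the mitochondrial pathway of apoptosis is engaged, and the expression of 10 of its genes was described in mouse gastrocnemius muscle. The genes were *Bcl2*, *Bcl2l1*, *Bcl2l2*, *Mcl1*, *Bax*, *Bak1*, *Bid*, *Bcl2l11*, *Bbc3* and *Bcl2l13*, which are 10 of the 49315 genes in the count table. They were listed by family name, and the family was chosen from the measured values of the genotype comparison, in which *Bcl2* had been noted for groups that did not overlap. The genotype values of these genes, with their intervals and counts of calls, are therefore a description and not independent evidence of a difference. All 10 passed the filter on low counts.

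RNA was sequenced from 10 male mice on a C57BL6J background, 5 per genotype, and every mouse had inhaled cigarette smoke. AHRfl/fl mice carried floxed alleles of the aryl hydrocarbon receptor (AHR) and no Cre, and were littermates of the AHRmKO mice. AHRmKO mice carried the same floxed alleles with the HSA-MCM transgene, in which a human skeletal actin promoter drives a Cre fused to mutant estrogen receptor in muscle fibres, so that tamoxifen induces the deletion there and not in the other cells of the muscle. Smoke was given for 16 weeks, on 5 days per week, in 2 sessions of 1 h per day at 220 ± 80 mg/m3 of total suspended particulates. It began 4 weeks after tamoxifen by the labels and the supplement of the study. This interval is 1 week shorter in its main text. The labels give harvest at 72 h after the last session. Elsewhere in the study the harvest is given as a window that ends at that time. Muscles of air-exposed mice were not analysed here, so the comparison is between genotypes under smoke. The study calls the mice aged without an age in the sources used here, and it counts the exposure of both genotypes from the delivery of tamoxifen without stating the injection of AHRfl/fl mice by name.

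The family works in layers. Survival members (*Bcl2*, *Bcl2l1*, *Bcl2l2* and *Mcl1*) hold the effectors *Bax* and *Bak1* in check at the mitochondrial outer membrane, and once released the effectors form pores through which cytochrome c leaves. BH3-only members (*Bid*, *Bcl2l11* and *Bbc3*) sense stress and either occupy the survival members or activate the effectors. *Bcl2l13* encodes an outer membrane protein known mainly as a receptor for mitophagy, the removal of mitochondria. In muscle fibres, which are long-lived and have many nuclei, this pathway is known for its part in the loss of nuclei and in atrophy.

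AHR is a transcription factor that binds DNA at the core motif GCGTG, so the 250 bases before each annotated start of the 10 genes were searched for GCGTG and for its reverse complement CACGC (RefSeq sequences, GRCm38.p6). All 10 genes matched, with 15 starts, and 6 starts (40.0%) in 4 genes held the motif, against 9250 of 32851 starts of all genes (28.2%). Several of the 6 starts belong to *Bbc3*. By gene, 4 of the 10 held the motif at any start, against 30.9% of all 27025 genes. *Bbc3* held 6 matches, *Bcl2l11* held 3, and *Bcl2l1* and *Bcl2l13* held 1 each. The windows below show the match nearest to a start in each of these genes, with the motif in capitals, 5′ to 3′ on the strand of the gene.
Bbc3: ggcggggaccgcGCGTGcggg
Bcl2l11: tgtcgcagcctgCACGCgccagcggcctg
Bcl2l1: ccataaacgttcCACGCgcctgagactcc
Bcl2l13: tcgtacacaggtCACGCctgcgcaaactg
The *Bbc3* window lies at chr7:16310410-16310430 on the plus strand, with its motif 9 bases before a start. The *Bcl2l11* window lies at chr2:128125880-128125908 on the plus strand, 146 bases before a start, and the *Bcl2l1* window at chr2:152831798-152831826 on the minus strand, 86 bases before a start. The *Bcl2l13* window lies at chr6:120836073-120836101 on the plus strand, 145 bases before a start. For *Bcl2*, the gene whose groups did not overlap, the whole 250 bases before its start are shown, from chr1:106714291-106714540 on the minus strand, all in lower case because they held neither form of the motif.
Bcl2: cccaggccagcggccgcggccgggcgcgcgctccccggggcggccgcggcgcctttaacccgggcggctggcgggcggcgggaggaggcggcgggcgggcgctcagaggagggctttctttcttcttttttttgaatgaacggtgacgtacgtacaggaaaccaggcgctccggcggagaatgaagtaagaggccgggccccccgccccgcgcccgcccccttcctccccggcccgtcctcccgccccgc
Their GC content was 74.8%, against a median of 52.4% over all starts, and the absence of these letters from this window says nothing of AHR elsewhere at the gene. A match is a run of letters and not a measured binding site, and no binding was measured in these libraries.

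Total counts were between 30393035 and 36500548 in AHRfl/fl mice and between 35038167 and 37954388 in AHRmKO mice. *Ahr* itself had 43 to 110 counts in AHRfl/fl and 31 to 80 in AHRmKO mice, and the groups overlapped. The deletion removes 1 exon while the counts sum all exons, so these counts do not measure how complete it was. *Esr1*, whose sequence is part of the Cre fusion, was at 15.93 to 18.98 CPM (counts scaled to a common library size by TMM) in AHRfl/fl and 268 to 678 CPM in AHRmKO mice, which separated the genotypes as labelled. *Xist*, a transcript normally found in female cells, had 44 to 75 counts in 5 of the 10 libraries, 3 of them AHRfl/fl, and 0 to 3 in the others, while the Y-linked *Ddx3y* had at least 1852 counts in every library.

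The members spanned a wide range of levels. Compared per length as FPKM (CPM divided by the length of the exons in kilobases), *Mcl1* was at a geometric mean of 45.8 over the 10 mice (range 36.7 to 53.6), the highest of the family, and *Bid* was at 0.154 (range 0.111 to 0.248), the lowest. Between them lay *Bak1* at 9.10, *Bax* at 8.95, *Bcl2l13* at 8.02, *Bcl2l2* at 7.02 and *Bcl2l1* at 5.45 FPKM. A lower tier held *Bbc3* and *Bcl2*, both at 1.25, and *Bcl2l11* at 0.814 FPKM.

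The order of these levels was tested within mice, by a two-sided exact permutation test that flips the sign of the difference of log2 FPKM between neighbours, with Benjamini-Hochberg adjustment over the 9 neighbouring pairs. The smallest p this design allows is 0.00195. In 7 of the 9 pairs the levels differed. *Mcl1* was 5.04-fold above *Bak1* in 10 of 10 mice (exact test, adjusted p = 0.00352), *Bcl2l1* was 4.37-fold above *Bbc3* in 10 of 10 mice (exact test, adjusted p = 0.00352), and *Bcl2l11* was 5.28-fold above *Bid* in 10 of 10 mice (exact test, adjusted p = 0.00352). *Bcl2* was 1.53-fold above *Bcl2l11* in 9 of 10 mice (exact test, adjusted p = 0.0126). This value pools the genotypes, and *Bcl2* over *Bcl2l11* was 1.97 ± 0.222 (SD, n = 5, range 1.72 to 2.31) in AHRfl/fl and 1.24 ± 0.369 (SD, n = 5, range 0.807 to 1.68) in AHRmKO muscle, a difference given as a description. Neither the effectors *Bak1* and *Bax* (1.02-fold, exact p = 0.584) nor *Bbc3* and *Bcl2* (1.00-fold, exact p = 0.988) differed beyond the spread of the mice. Gene length matters for the closer neighbours. With the longest transcript in place of the union of exons, the difference of log2 FPKM turned to -0.48 between *Bak1* and *Bax* and to -0.24 between *Bcl2l2* and *Bcl2l1* (exact permutation test, adjusted p = 0.00251 for both), and *Bcl2* against *Bcl2l11* no longer passed (0.29, exact permutation test, adjusted p = 0.108).

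**Figure D1:**
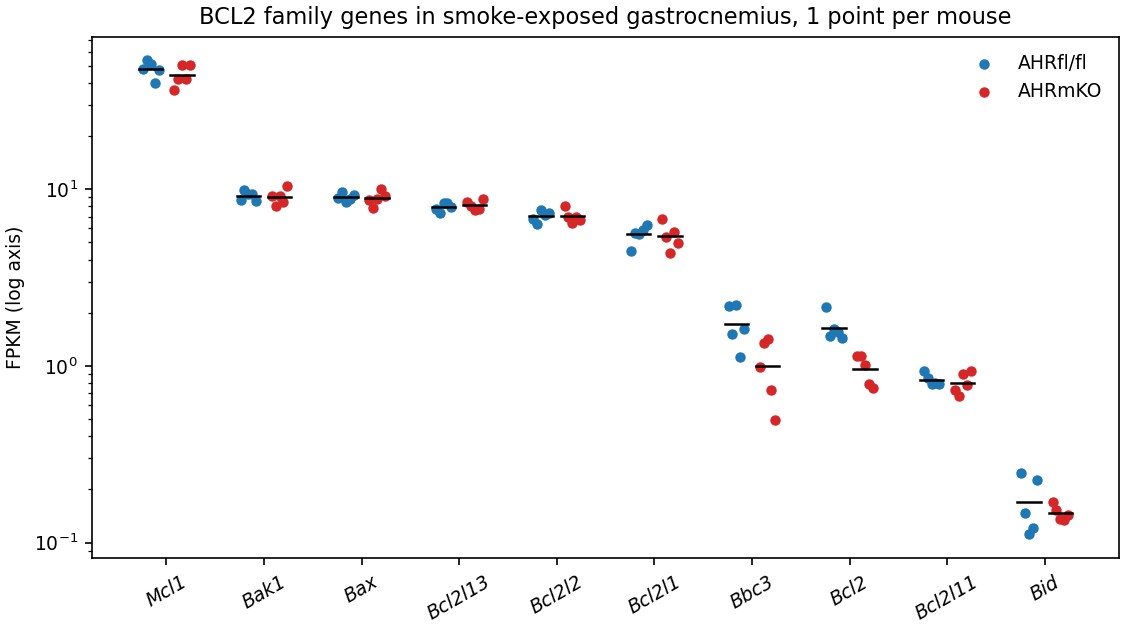
Levels of the 10 BCL2 family genes in each mouse, as FPKM on a log axis, with the genes on the other axis, the genotypes in separate colours and lines at the group means. *Mcl1* sat above all other members in every mouse, and *Bid* below all.

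Among the survival members, *Bcl2* (ENSMUSG00000057329, chromosome 1 of GRCm38, 106538178 to 106714274, minus strand) differed most between the genotypes. *Bcl2* encodes the founding survival protein of the family. In AHRfl/fl mice it was at 19.7, 13.5, 14.8, 14.3 and 13.3 CPM, from 692, 467, 526, 500 and 429 counts. In AHRmKO mice it was at 10.4, 10.4, 9.25, 7.23 and 6.91 CPM, from 396, 384, 324, 275 and 231 counts. Every AHRmKO mouse lay below every AHRfl/fl mouse, with 1 AHRfl/fl mouse well above the other 4. The means were 15.1 ± 2.63 CPM (SD, n = 5) in AHRfl/fl and 8.84 ± 1.69 CPM (SD, n = 5) in AHRmKO muscle, a log2 fold change of -0.77 (standard error 0.14, 95% interval -1.08 to -0.46), or a level of 0.585 times that of AHRfl/fl. Without the highest AHRfl/fl mouse the log2 fold change was -0.66. As *Bcl2* was chosen for this separation, no p value of this contrast is printed for it, and its calls below are only counted. The intervals of this and the other members show precision only.

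*Mcl1* (ENSMUSG00000038612, chromosome 3, 95658788 to 95663176, plus strand) encodes a short-lived survival protein. It was at 164.1, 183.3, 175.2, 136.0 and 161.5 CPM in AHRfl/fl mice and at 125.3, 143.0, 172.4, 144.5 and 172.2 CPM in AHRmKO mice. The ranges overlapped, with 2 AHRfl/fl mice above every AHRmKO mouse, and the log2 fold change was -0.11 (95% interval -0.33 to 0.10). *Bcl2l1* (ENSMUSG00000007659, chromosome 2, 152780668 to 152831728, minus strand), which encodes BCL-XL, was at 20.6 to 28.8 CPM in AHRfl/fl and at 19.9 to 31.2 CPM in AHRmKO mice, with a log2 fold change of -0.04 (95% interval -0.29 to 0.21). *Bcl2l2* (ENSMUSG00000089682, chromosome 14, 54883377 to 54888234, plus strand), which encodes BCL-W, was at 28.3 to 34.1 CPM in AHRfl/fl and at 28.7 to 35.8 CPM in AHRmKO mice, and its mean was 31.5 ± 2.21 CPM (SD, n = 5) against 31.4 ± 2.69 (SD, n = 5). The log2 fold change of *Bcl2l2* had a 95% interval of -0.16 to 0.15, and its groups, like those of *Mcl1* and *Bcl2l1*, overlapped.

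The effector transcripts had similar means in the genotypes. *Bax* (ENSMUSG00000003873, chromosome 7, 45461697 to 45466898, minus strand) was at 14.04, 15.17, 13.4, 13.9 and 14.62 CPM in AHRfl/fl and at 13.7, 12.4, 13.9, 15.9 and 14.4 CPM in AHRmKO mice, with a log2 fold change of -0.02 (95% interval -0.18 to 0.15). *Bak1* (ENSMUSG00000057789, chromosome 17, 27019810 to 27029009, minus strand) was at 20.8 to 23.8 CPM in AHRfl/fl and at 19.3 to 25.1 CPM in AHRmKO mice, with a log2 fold change of -0.02 (95% interval -0.19 to 0.14). Both also varied little among mice of 1 genotype. The within-genotype SD of log2 CPM was 0.10 for *Bax* and 0.12 for *Bak1*, and 14% and 20.7% of the genes tested had a smaller one. *Bak1* shares 437 nt, or 18.2% of its exons, with *Ggnbp1* on the other strand (981 to 1380 counts), and the study states strand-specific counting only for libraries prepared with strand, without saying whether these were, so reads from this overlap cannot be assigned with certainty. The same holds for *Bcl2*, which shares 558 nt (6.09% of its exons) with the antisense *D630008O14Rik* (0 to 3 counts). On the same strand, *Bax* shares 192 nt (12.2% of its exons) with *Gm45808* and *Bcl2l2* shares 594 nt (13.3%) with *Gm20521*, where reads are ambiguous whatever the strand setting. These neighbours had 0 to 4 and 0 to 1 counts, and the levels of *Bax* and *Bcl2l2*, which stood only 1.12-fold above and 1.14-fold below *Bcl2l13*, are uncertain to that extent.

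Of the BH3-only members, *Bbc3* (ENSMUSG00000002083, chromosome 7, 16308393 to 16318205, plus strand) had the lowest fold change. It encodes PUMA, a target of p53 that binds all survival members. It was at 4.66, 3.20, 4.71, 2.37 and 3.43 CPM in AHRfl/fl mice and at 2.10, 2.88, 3.03, 1.55 and 1.05 CPM in AHRmKO mice, from 35 to 167 counts. The groups overlapped, since the lowest AHRfl/fl mouse lay below 2 AHRmKO mice. The means were 3.68 ± 1.00 CPM (SD, n = 5) and 2.12 ± 0.847 CPM (SD, n = 5), a log2 fold change of -0.79 with a wide 95% interval of -1.40 to -0.19. *Bbc3* was the most variable member, with a within-genotype SD of 0.52 on the log2 scale, and 88.5% of the genes tested had a smaller one. The median over all genes was 0.21 and the value for *Bcl2* was 0.26. Read against the pattern for which *Bcl2* was noted, *Bcl2* met it (lowest AHRfl/fl mouse 13.3 CPM, highest AHRmKO mouse 10.4 CPM) and *Bbc3* did not (2.37 and 3.03 CPM).

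*Bcl2l11* (ENSMUSG00000027381, chromosome 2, 128126038 to 128162547, plus strand), which encodes BIM, was at 7.48, 6.86, 6.38, 6.41 and 6.31 CPM in AHRfl/fl and at 5.83, 5.45, 7.19, 6.23 and 7.51 CPM in AHRmKO mice. The AHRmKO mice surrounded the AHRfl/fl mice, and the log2 fold change was -0.05 (95% interval -0.29 to 0.19). *Bid* (ENSMUSG00000004446, chromosome 6, 120891930 to 120916853, minus strand) links death receptors to mitochondria once caspase-8 cleaves its protein. It had only 14 to 31 counts per library, or 0.395 to 0.881 CPM in AHRfl/fl and 0.473 to 0.604 CPM in AHRmKO mice. At this depth its log2 fold change of -0.21 had a 95% interval of -0.81 to 0.40, which includes a difference of the size given for *Bcl2*.

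*Bcl2l13* (ENSMUSG00000009112, chromosome 6, 120836212 to 120892842, plus strand) was at 70.2, 66.8, 75.9, 75.8 and 72.1 CPM in AHRfl/fl and at 76.9, 72.7, 69.5, 70.0 and 79.9 CPM in AHRmKO mice. It was the steadiest member, with a within-genotype SD of 0.08 on the log2 scale, and its log2 fold change of 0.03 (95% interval -0.10 to 0.17) was the only positive one of the family. *Bid* and *Bcl2l13* lie on opposite strands and share 628 nt, 17.7% of the exons of *Bid* and 6.91% of those of *Bcl2l13*, which had 2316 to 2929 counts. Without strand the low counts of *Bid* are uncertain for this reason too.

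**Figure D2:**
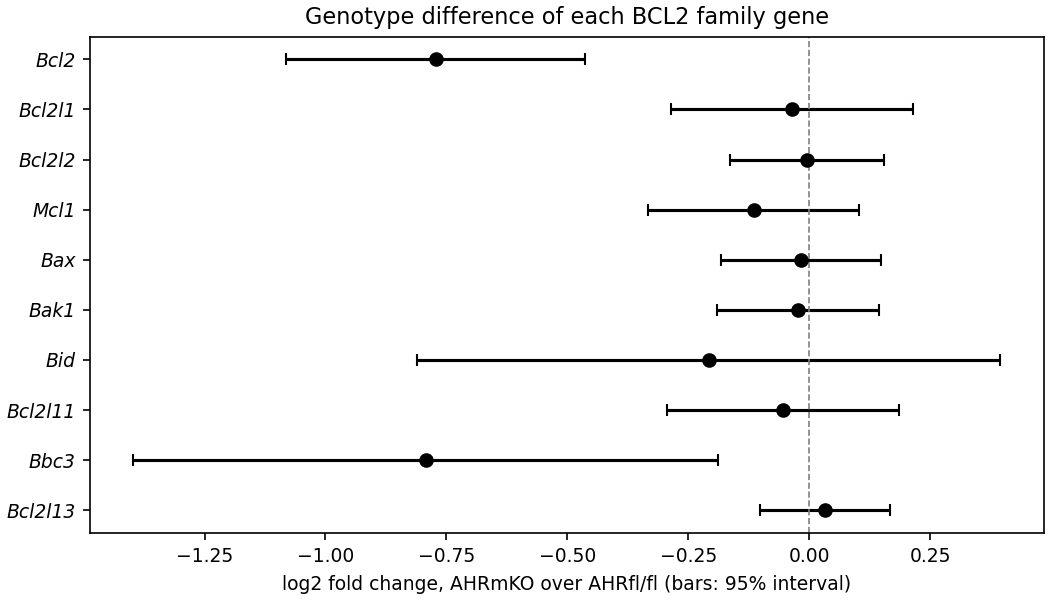
Log2 fold change of each member, AHRmKO against AHRfl/fl (points, edgeR fit over 10 mice), with 95% intervals as bars and a line at 0. *Bcl2* (-0.77) and *Bbc3* (-0.79) sit lowest, and the intervals show the precision of values from the contrast that chose the family.

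Counted over the family, 9 of 10 fold changes were negative and 1 was positive, with a median of -0.05 against 0.01 over the 14714 genes tested. Of all these genes, 7133 were negative and 7581 positive. Among the 9 negative members, 5 lay near 0 and changed sign when single mice were left out. By the quasi-likelihood test of edgeR, 0 of the 10 members had an adjusted p under 0.05, beside 0.0068% of all genes tested, a single gene, *Esr1*. At an unadjusted p under 0.05 the count was 2 members, *Bcl2* and *Bbc3*, both lower, beside 6.61% of all genes. The groups did not overlap for 1 member, *Bcl2*, beside 0.714% of all genes that were lower in every AHRmKO mouse. Members were counted in either direction, and of the 14714 genes 105 were lower and 101 higher in every AHRmKO mouse. By the adjusted p of the DESeq2 Wald test alone, 1 member was called lower, *Bcl2*, of the 9 members with an adjusted p, beside 0.129% of all genes with an adjusted p. The study used this test with a further limit, an absolute log2 fold change above 1, which *Bcl2* did not reach (-0.77 in DESeq2). The family was chosen from this contrast, so nothing is read from these counts.

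The proportions between members within a mouse were set out on the FPKM scale, also as a description. *Bcl2* over *Bax* was 0.184 ± 0.0357 (SD, n = 5, range 0.153 to 0.241) in AHRfl/fl and 0.110 ± 0.0291 (SD, n = 5, range 0.0785 to 0.145) in AHRmKO muscle, and the groups did not overlap. *Mcl1* over *Bax* was 5.32 ± 0.565 (SD, n = 5) and 4.99 ± 0.729 (SD, n = 5), with ranges that overlapped. *Bcl2* made up only 2.67 ± 0.529% (SD, n = 5) of the summed level of the 4 survival members in AHRfl/fl and 1.69 ± 0.411% (SD, n = 5) in AHRmKO muscle, while *Mcl1* made up 69.7 to 81.1% in the 10 mice. The summed survival level over the summed level of *Bax* and *Bak1* was 3.42 ± 0.262 (SD, n = 5) in AHRfl/fl and 3.22 ± 0.242 (SD, n = 5) in AHRmKO muscle, ranges of 2.98 to 3.69 and 2.95 to 3.48. The summed survival level over the summed BH3-only level went the other way, at 23.3 ± 3.68 (SD, n = 5, range 18.2 to 26.8) in AHRfl/fl and 30.5 ± 6.39 (SD, n = 5, range 25.3 to 40.0) in AHRmKO muscle, and the groups overlapped. *Bcl2* was thus a small part of the survival sum in both genotypes, and *Mcl1* the main one. Transcript sums say nothing of the proteins, which were not measured in these libraries.

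**Figure D3:**
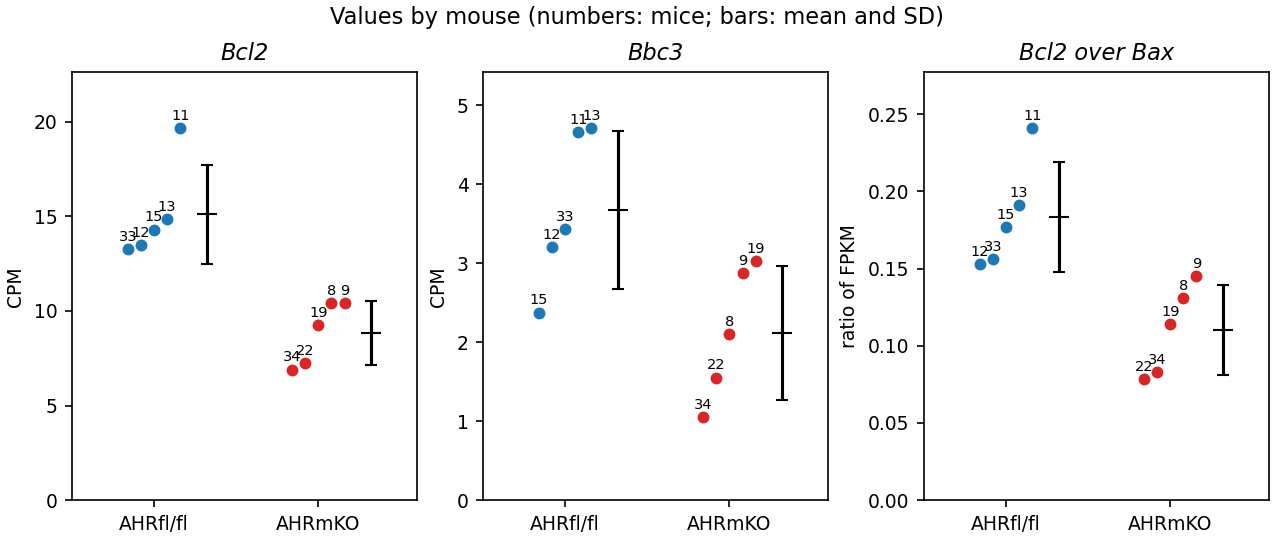
*Bcl2* and *Bbc3* in CPM and the ratio of *Bcl2* to *Bax* in FPKM, 1 point per mouse by genotype, with mean and SD (n = 5). *Bcl2* and its ratio to *Bax* separate the genotypes in all 10 mice, and *Bbc3* overlaps between 2.37 and 3.03 CPM.

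How the members varied among mice of 1 genotype was not used to choose them and was tested. After removal of the genotype means, Pearson r was computed for the 45 pairs over 10 mice, with 100000 permutations of the mice within genotypes. None of the 45 pairs passed at an adjusted p under 0.05, and 3 had an unadjusted p under 0.05. *Bcl2* and *Bbc3* had the highest r, 0.75 (permutation p = 0.0333, adjusted p = 0.412, Spearman rho 0.76 with permutation p = 0.0402), and r was 0.64 without the 2 mice farthest from the median of *Bcl2*. *Bcl2l1* and *Bcl2l2* had r = 0.70 (permutation p = 0.0451, adjusted p = 0.412, rho 0.69 with p = 0.0411, and r = 0.66 without the 2 farthest mice). *Bcl2l1* and *Bcl2l11* had r = -0.72 (permutation p = 0.036, adjusted p = 0.412, rho -0.62 with p = 0.118, and r = -0.50 without the 2 farthest mice). Only 19 of the 45 correlations were positive, with a median of -0.08. The transcripts whose deviations were most like those of *Bcl2*, among 12131 genes at 1 CPM or more, were *Odr4* (r = 0.92, 28.9 CPM, log2 fold change 0.00), *Abi2* (r = 0.92, 8.55 CPM, log2 fold change -0.11) and *Ypel2* (r = 0.92, 8.78 CPM, log2 fold change -0.28). They were picked from all of these correlations over 10 mice, and are given without a p.

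**Figure D4:**
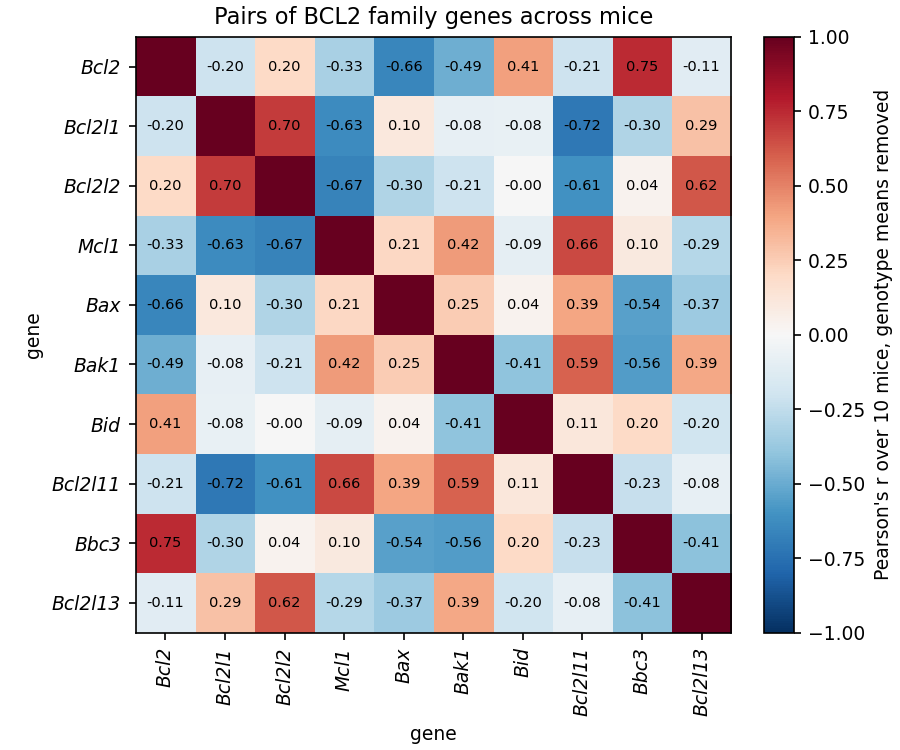
Pearson r of log2 CPM between the members over 10 mice after the genotype means were removed, as a colour scale from -1 to 1 with the members on both axes. Values run from -0.72 (*Bcl2l1* and *Bcl2l11*) to 0.75 (*Bcl2* and *Bbc3*), and 19 of 45 are positive.

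Bulk RNA cannot tell fewer cells of a type from less RNA per cell. Markers of 10 cell types were therefore summed in each mouse, and 9 of the lists are shown. Fast fibre markers, which define this muscle, summed to 89600 to 136000 CPM in AHRfl/fl and 99900 to 129000 CPM in AHRmKO mice, and 0 of the marker genes were at 0 in every mouse. The ranges of these 9 sums overlapped between the genotypes (two-sided exact permutation test, lowest adjusted p = 0.67). The smallest p of this test is 0.00794, or 0.0794 after adjustment for 1 fully separated list, so it could not have called a single list. Endothelial markers summed to 146 to 222 CPM and 158 to 284 CPM, macrophage markers to 11.7 to 20.1 and 10.9 to 23.5 CPM, lymphoid markers to 4.68 to 6.64 and 3.31 to 8.59 CPM, and fibroblast markers to 232 to 411 and 234 to 437 CPM, in AHRfl/fl and AHRmKO mice. Adipocyte markers summed to 2.12 to 14.6 and 2.39 to 17.1 CPM, erythroid markers to 85.8 to 265 and 121 to 423 CPM, and satellite cell markers, with the lowest unadjusted p of the lists shown (exact permutation p = 0.127), to 2.17 to 3.20 and 2.69 to 3.68 CPM. Slow fibre markers varied most, from 94.8 to 2020 CPM and from 252 to 2400 CPM. Over the 10 mice with genotype means removed, the slow fibre score had r = -0.12 with *Bcl2* (permutation p = 0.755, adjusted p = 0.823) and r = -0.30 with *Bbc3* (permutation p = 0.4). Its lowest p among the 10 members was with *Mcl1* (r = -0.68, permutation p = 0.0436, adjusted p = 0.436, rho -0.52 with p = 0.133, and r = -0.59 without the 2 farthest mice). With the score in the fit, the log2 fold change of *Bcl2* was -0.76, and with a term for libraries that held *Xist* it was -0.76 too. The lists shown do not cover all cell types of the muscle. The list not shown had a lower median sum in AHRmKO mice, the direction of *Bcl2*, with ranges that overlapped between the genotypes. Whether its sum followed *Bcl2* among mice was not tested. The part of the cell make-up in the *Bcl2* values was not tested beyond the slow fibre score.

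The rest of the pathway was read from 52 further genes in 6 lists, of which 46 were tested. None of these 46 passed the adjusted threshold in edgeR (0 genes, lowest adjusted p = 0.665). Of their fold changes, 21 were positive and 25 negative, with a median of -0.02, beside 7581 positive and 7133 negative over all genes tested. At an unadjusted p under 0.05 the count was 5 of 46, all lower in AHRmKO muscle, beside 6.61% of all genes, of which 475 were higher and 497 lower. The other BCL2 family genes gave 2 of these 5, among 10 tested. *Bnip3*, a mitophagy receptor with a BH3-like region, was at 256.9 ± 16.2 CPM (SD, n = 5) and 225.8 ± 10.5 CPM (SD, n = 5), with a log2 fold change of -0.19 (adjusted p = 0.665 in edgeR). Its groups of 240.2 to 283.4 and 210.4 to 238.5 CPM did not overlap, by a narrow gap. It was the only 1 of the 46 without overlap, beside 105 genes lower and 101 higher in every AHRmKO mouse among all 14714. *Bok*, another effector of the family, was low, at 22 to 70 counts, with a log2 fold change of -0.48 (adjusted p = 0.740 in edgeR). In that list 6 genes, *Pmaip1* among them, were too low to test.

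The apoptosome and caspase list had 8 positive and 3 negative fold changes in its 11 genes. Its most abundant member, *Cycs*, which encodes the cytochrome c that leaves through the effector pores, was at 372 ± 33.8 CPM (SD, n = 5) and 378 ± 26.6 CPM (SD, n = 5). *Endog*, a mitochondrial nuclease, was at 34.6 to 40.9 CPM in AHRfl/fl and at 13.9 to 37.7 CPM in AHRmKO mice, with a log2 fold change of -0.53 (adjusted p = 0.691 in edgeR). *Vdac1*, a channel of the outer membrane, was at 1435 ± 85.4 and 1361 ± 57.0 CPM (SD, n = 5 each), *Diablo*, which relieves caspase inhibition, at 39.1 ± 2.29 and 36.1 ± 2.77 CPM, and the death receptor *Tnfrsf1a* at 16.0 ± 1.32 and 15.7 ± 1.34 CPM. These 3 were not among the 5 genes counted above.

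The p53 arm, of which *Bbc3* is a target too, had 6 negative fold changes and 1 positive one in its 7 genes, with a median of -0.20. Over all genes tested, 7133 were negative and 7581 positive. *Cdkn1a*, the p53 target that stops the cell cycle, was at 44.9 to 69.0 CPM in AHRfl/fl and at 16.0 to 46.4 CPM in AHRmKO mice, with a log2 fold change of -0.72 (95% interval -1.32 to -0.12, adjusted p = 0.683 in edgeR). *Trp53inp1*, which encodes a stress-induced p53 cofactor, was at 18.3 ± 4.77 and 13.5 ± 1.73 CPM (SD, n = 5 each), with a log2 fold change of -0.44 (adjusted p = 0.665 in edgeR). *Trp53* itself had a log2 fold change of -0.08, and *Ccng1*, the most abundant gene of the list, one of 0.13 (adjusted p = 0.783 in edgeR). No gene of this arm passed the threshold.

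**Figure D5:**
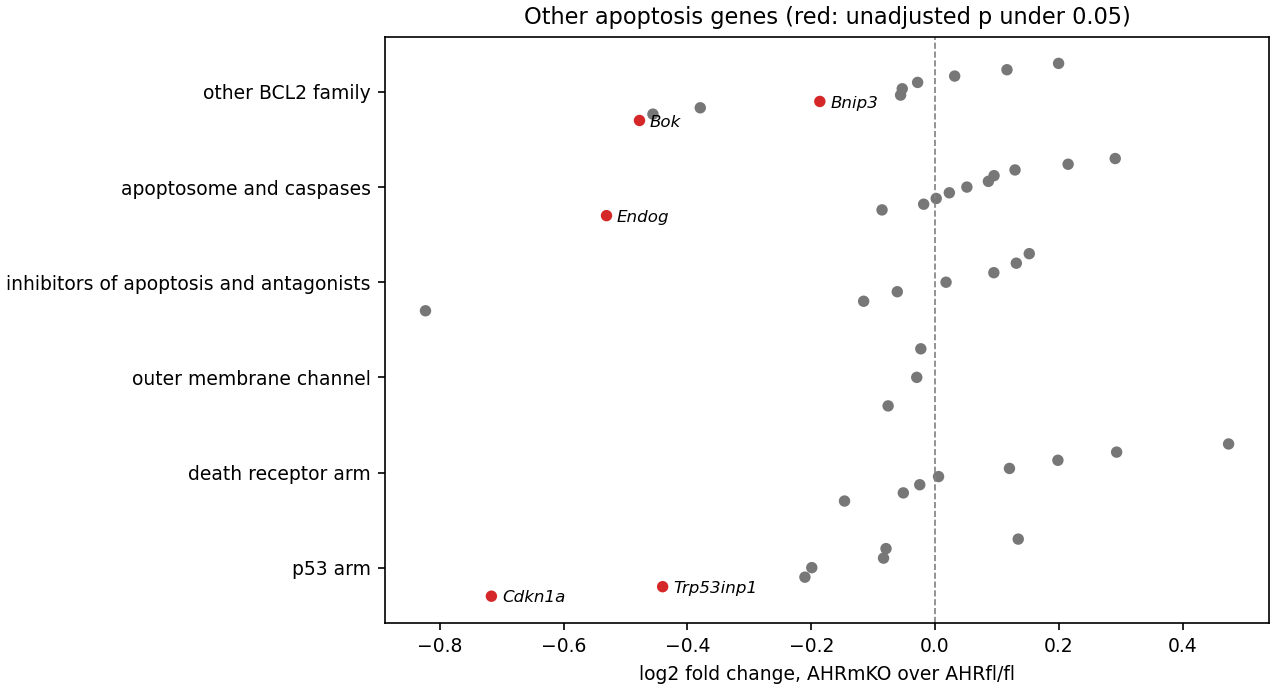
Log2 fold change of the 46 other apoptosis genes, AHRmKO against AHRfl/fl, in 6 lists, with red points for an unadjusted p under 0.05 in edgeR. The 5 red points of 46 are all below 0, beside 6.61% of all genes at that p in either direction, and none passed after adjustment.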

How the data were processed

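RNA from the gastrocnemius of 10 mice was poly(A)-selected and sequenced as paired ends. The authors used Trimmomatic 0.36 for trimming, STAR 2.5.2b for alignment to GRCm38 and featureCounts for exonic, uniquely mapped reads, and deposited a table of raw counts with 1 column per mouse, neither normalized nor pooled. The Ensembl release is not given in the sources used here, and strand-specific counting is stated only for strand-specific libraries. Groups follow the genotype in the labels, and each mouse was 1 replicate.

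Names, positions and exon lengths came from GENCODE M21, which holds 49056 of 49315 gene identifiers. The genotype fit used edgeR 4.0.16 under R 4.3.3 (filterByExpr at 10 counts and a total of 15, TMM, robust quasi-likelihood test, Benjamini-Hochberg adjustment over 14714 genes, threshold 0.05). CPM use TMM library sizes, and a prior count of 2 was added for log2 CPM. FPKM divide CPM by the union of exons. The floor of 3 counts was 0.079 to 0.0987 CPM by total counts, without the TMM scaling used for the other CPM. This floor covers counting error only. The fits were tested on simulated counts.

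The members, gene lists and tests were chosen with earlier results of these data known. The genes named are the members, *Ahr* and *Esr1*, other apoptosis genes with an unadjusted p under 0.05, the most abundant gene of each list per length, and the 3 genes most like *Bcl2* in their deviations. *Xist*, *Ddx3y*, *Ggnbp1*, *D630008O14Rik*, *Gm45808*, *Gm20521*, *Trp53* and *Pmaip1* were named outside this rule, after their values were seen.

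Other settings tried were DESeq2 1.42.0 (Wald test), limma 3.58.1 (voom), DESeq2 size factors, library size only, other filters, no robust estimation, 1 surrogate variable (sva 3.50.0), the slow fibre score or the presence of *Xist* counts (over 10) as a covariate, mtDNA genes left out, a threshold of 0.1, and leaving out each mouse. A further list of cell type markers, included in the adjustment over 10 lists, is not reported here, so the lists shown are not a full account of the cell types.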

Additional observations from a re-analysis of the deposited data

Results flagged for a closer look

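Dixon's criterion for a sample far from the others was applied to the log2 CPM of 34 groups of 5 mice. Chance alone flags about 1 in 20, or 1.7 of them. It was met by 2. *Bcl2* in AHRfl/fl mouse 11 was at 19.7 CPM, against 13.3 to 14.8 CPM in the other 4 AHRfl/fl mice. On the log2 scale the gap was 0.715 of the range of the group, just past the critical value of 0.71. Without this mouse the log2 fold change of *Bcl2* was -0.66 in place of -0.77. *Esr1* in AHRmKO mouse 9 was at 678 CPM, against 268 to 330 CPM in the other 4 AHRmKO mice, and the gap on the log2 scale was 0.773 of the range.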

How the results depend on the processing

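No member had an adjusted p under 0.05 in edgeR with the filter on low counts, and 1 member, *Bcl2*, did with DESeq2 (of 9 with an adjusted p) and in edgeR with no filter. The count over all genes went from 1 to 21 with DESeq2, to 5 with no filter and to 2 once the slow fibre score was a covariate. It was between 1 and 6 with each mouse left out, and was 6 without AHRmKO mouse 34, while that of the members stayed at 0. For these counts the cause was not tested. *Bcl2* kept a log2 fold change of -0.79 to -0.76 over 11 other settings, and of -0.84 to -0.66 when single mice were dropped. *Bbc3* ranged from -0.84 to -0.70, and from -0.95 to -0.62 when single mice were dropped. The number of members whose groups do not overlap was between 1 and 2 with a mouse left out. It was 2, *Bbc3* added, without AHRfl/fl mouse 15, the lowest of its group for *Bbc3* (2.37 CPM). The share over all genes was not computed for this smaller set of mice, so nothing is read from the added member. The median log2 fold change of the 10 members ranged from -0.07 to -0.04, or from -0.10 to -0.01 when single mice were dropped.

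Of 210 values for single members, 14 changed sign, all with a mouse left out and in 5 genes near 0, whose ranges were -0.130 to 0.0377 for *Bcl2l1*, -0.0565 to 0.0297 for *Bcl2l2*, -0.0650 to 0.0259 for *Bax*, -0.0795 to 0.0186 for *Bak1* and -0.115 to 0.00112 for *Bcl2l11*. The other apoptosis genes past the threshold stayed at 0 in all settings run, and so did the member pairs. Of the 9 neighbouring pairs 7 differed in level, and 5 did so in the same direction with the longest transcript, where 2 others differed in the opposite direction. The genotypes were littermates, but the labels give no litter, so mice could not be paired or grouped by litter in the fits. *Bid*, at 14 to 31 counts, and *Bbc3*, the most variable member among mice, had the widest intervals of the family.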
